A study of Mus musculus with 6 samples.

Results

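The expression of 10 genes of the retinal pigment epithelium and of the visual cycle was examined in mouse retina after excitotoxic injury. The genes were taken by symbol: Rpe65, Lrat, Rdh5 and Rgr act on retinoids, Ttr encodes a carrier protein, Best1 encodes a channel, and Tyr, Dct, Pmel and Mlana belong to the melanosome. They are 10 of 25202 genes that were detected in any of the 6 libraries. All mice were wild type C57BL/6 (C57BL/6J in the study's methods) at postnatal week 5, and all received N-methyl-D-aspartate (NMDA), a glutamate receptor agonist that kills inner retinal neurons, as 2 µl of 100 mM solution into the vitreous. Then 2 days later, the NMDA + SCF group (n = 3) received 2 µl of recombinant stem cell factor (SCF) at 50 ng/µl into the vitreous. The NMDA + PBS group (n = 3) received saline in its place. Retinas were taken a week after SCF, and messenger RNA was enriched with oligo(dT) beads and sequenced. Neither the labels nor the methods say whether each library came from a separate animal, so p-values measure only the spread between these libraries. The comparison asks how much pigment epithelium RNA each dissected retina carried and whether that amount differed with SCF.

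The retinal pigment epithelium is a single pigmented cell layer that lies against the photoreceptors and can adhere to the retina when it is dissected. It recycles the chromophore of the visual pigments: photoreceptors release all-trans retinol, the epithelium esterifies and isomerizes it, oxidizes the product to 11-cis retinal and returns it. Its melanosomes are built by proteins that the ciliary and iris epithelia and the melanocytes of the choroid also make. SCF is the ligand of c-kit, a receptor tyrosine kinase that melanocytes also depend on.

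Levels are given as FPKM, fragments per kilobase of transcript scaled to library depth, summed over the Ensembl transcripts of a gene. The values were whole multiples of 1 fragment for 99.7% of the transcript values, which gave between 3404338 and 4440585 counted fragments per library. The files listed different transcripts: 1 list was shared by the 3 NMDA + SCF libraries and NMDA + PBS replicate 1, and another by NMDA + PBS replicates 2 and 3. Counted fragments also split by list. Libraries of the former list had between 3404338 and 3479960, which is 14.1 to 15.2% of their clean read pairs. NMDA + PBS replicates 2 and 3 had 3977113 and 4440585, which is 16.9 and 18.2% of theirs. The rod markers Sag, Pde6b, Gnat1 and Nrl were at a sum of between 952 and 1414 FPKM in every library. Markers of the lens, which is not part of the retina, were at sums of 23.4, 179 and 303 FPKM in NMDA + PBS and of 5052, 458 and 9499.7 FPKM in NMDA + SCF.

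Promoter sequence is shown for 4 of the genes as examples of their roles: Tyr and Dct of the melanosome, Rpe65 of the visual cycle and Best1 of epithelial transport. Each line gives the 250 bases before the transcription start, 5′ to 3′ on the strand of the gene, from RefSeq on GRCm38.p6. Capitals mark CATGTG or its complement CACATG, the form of E-box bound by MITF, the regulator of pigment cell genes, and TAATCC or its complement GGATTA, the core bound by OTX2 and CRX.
Tyr, chr7:87493513-87493762, minus strand: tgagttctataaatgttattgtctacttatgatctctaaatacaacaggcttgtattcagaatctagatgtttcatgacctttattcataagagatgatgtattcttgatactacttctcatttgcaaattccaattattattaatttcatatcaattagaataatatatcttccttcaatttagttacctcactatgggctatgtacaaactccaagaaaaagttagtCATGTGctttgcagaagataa
Dct, chr14:118052247-118052496, minus strand: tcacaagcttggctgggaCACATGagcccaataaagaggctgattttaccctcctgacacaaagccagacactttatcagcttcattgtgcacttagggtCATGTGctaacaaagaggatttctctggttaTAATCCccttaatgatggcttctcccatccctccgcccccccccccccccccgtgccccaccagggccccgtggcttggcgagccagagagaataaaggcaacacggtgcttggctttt
Rpe65, chr3:159598931-159599180, plus strand: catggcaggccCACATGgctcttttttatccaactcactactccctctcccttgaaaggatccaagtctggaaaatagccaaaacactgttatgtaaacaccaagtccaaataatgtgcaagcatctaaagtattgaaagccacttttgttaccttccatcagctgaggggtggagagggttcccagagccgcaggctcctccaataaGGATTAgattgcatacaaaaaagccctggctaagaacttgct
Best1, chr19:10001634-10001883, minus strand: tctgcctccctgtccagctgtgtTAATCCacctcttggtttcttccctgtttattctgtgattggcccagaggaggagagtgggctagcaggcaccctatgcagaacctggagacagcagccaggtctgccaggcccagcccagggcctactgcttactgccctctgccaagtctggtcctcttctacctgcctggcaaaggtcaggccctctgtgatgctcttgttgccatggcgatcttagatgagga
The E-box starts at position -21 from the start in Tyr, at -150 and -232 in Dct and at -239 in Rpe65. The TAATCC core starts at -119 in Dct, at -42 in Rpe65 and at -227 in Best1. RefSeq promoters were matched for 7 of the 10 genes. Of these 7, 3 held the E-box and 4 held TAATCC on either strand. Among all 32851 promoters, 12.3% held the E-box and 6.25% held TAATCC in the same window. In these 7 promoters no E-box overlapped a TAATCC. A match of letters is a description and not a bound site.

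None of the 10 genes passed a test of the difference between NMDA + SCF and NMDA + PBS. With limma on log2(FPKM + 1), 0 of 10 passed a fold change of at least 2 at an adjusted p of at most 0.001, 0 passed an adjusted p of 0.05 and 0 passed an unadjusted p of 0.05, while 9.22% of all 25202 genes passed the last, 4.33% of all genes as higher and 4.9% as lower in NMDA + SCF. With voom on the recovered fragments 0 of 10 were called and 1 of 10, Ttr, had an unadjusted p under 0.05, against 10.4% of all genes. At the fold and adjusted p used for calls, 0% of all genes passed in either fit. The adjusted p of the members ranged from 0.536 for Ttr to 0.998 for Rpe65. In 0 of the 10 genes were the groups free of overlap, against 14.1% of all genes. The fitted log2 fold change was positive for 8 and negative for 2, and 49.1% of all genes had a positive value. Its median was 0.22 for the members and -0.0058 over all genes. With genes under a mean of 1 FPKM left out, it was 0.35 for the 9 members kept and 0.07 over the genes kept. With upper quartile scaling it was 0.13 for the members and -0.053 over all genes. In bulk retina, fewer pigment epithelium cells and less RNA per cell cannot be told apart.

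**Figure D1:**
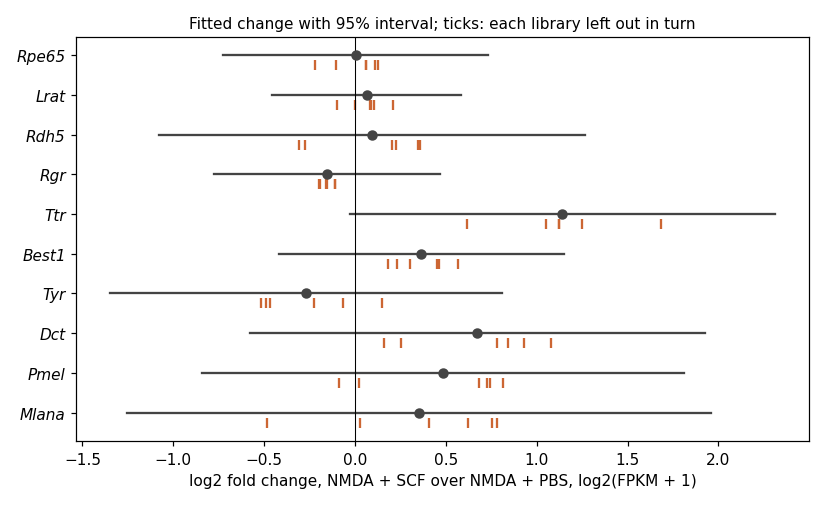
Fitted log2 fold change of each gene on the log2(FPKM + 1) scale (point) with its 95% interval (line), NMDA + SCF over NMDA + PBS, n = 3 each. Orange ticks are the fitted values with each of the 6 libraries left out in turn. All 10 intervals include 0, and Ttr, at 1.14, lies farthest from it.

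The genes of the retinoid cycle had group means close to each other, and none passed the test. Rpe65, the isomerase of the cycle and the most specific of the 4 for the pigment epithelium, was low in the 1 coding transcript on which its level rests. The other coding transcript of the gene was not analysed here. Rpe65 was at 1.26, 0.405 and 1.21 FPKM in NMDA + PBS replicates 1 to 3, and at 0.783, 0.771 and 1.24 FPKM in NMDA + SCF replicates 1 to 3. The lowest and the highest library were both NMDA + PBS, and the groups overlapped. These levels rest on 8, 3 and 10 fragments and on 5, 5 and 8 fragments, so 1 fragment more or less moves a value visibly. Per 1000000 counted fragments the lowest library had 0.754 (95% exact Poisson interval 0.156 to 2.2) and the highest 2.35 (1.01 to 4.63), and these intervals overlap. The fitted log2 fold change was 0.0043 ± 0.31 (SE), with an adjusted p of 0.998 by limma and an interval from -0.73 to 0.73. At this low level the log2(FPKM + 1) scale understates a change in FPKM, so larger changes in Rpe65 itself lie within the error of these libraries.

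Lrat, which esterifies retinol and so supplies the substrate of Rpe65, was the most abundant of the 4. Its FPKM values were 15.7, 9.87 and 13.0 in NMDA + PBS and 12.8, 14.6 and 12.5 in NMDA + SCF. All 3 NMDA + SCF libraries lay inside the range of NMDA + PBS. With between 210 and 309 fragments in each library this is the best measured of the retinoid genes, and its means were 12.9 ± 2.92 (SD, n = 3) and 13.3 ± 1.14 (SD, n = 3) FPKM. The log2 fold change of 0.06 had an interval from -0.46 to 0.58 (adjusted p = 0.929, limma).

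Rgr encodes an opsin that isomerizes retinoids in light and is made by Müller glia as well as by the pigment epithelium. It was at 3.19, 2.73 and 2.92 FPKM in NMDA + PBS and at 2.54, 2.76 and 2.34 FPKM in NMDA + SCF. In these sums the groups overlapped only because NMDA + SCF replicate 2 lay just above NMDA + PBS replicate 2. The sums include a short noncoding form with 0 to 2 fragments. The coding transcript alone was at 2.69, 1.87 and 2.54 FPKM in NMDA + PBS and at 2.54, 1.77 and 2.34 in NMDA + SCF. On it the groups interleaved (log2 fold change -0.06, unadjusted p = 0.821, limma over transcripts). For the sums the log2 fold change was -0.16 (interval -0.78 to 0.47, adjusted p = 0.841, limma). The exact two-sided permutation test over 3 against 3 libraries gave p = 0.2 for the sums, where 0.1 is the smallest value possible.

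Rdh5 oxidizes 11-cis retinol, the last step of the cycle. Its values of 0.440, 2.63 and 2.02 FPKM in NMDA + PBS and 0.874, 1.29 and 3.46 FPKM in NMDA + SCF rest on between 1 and 8 fragments of 1 coding transcript. High and low libraries occurred in both groups. The log2 fold change was 0.09 (interval -1.08 to 1.27, adjusted p = 0.963, limma), the widest interval among the retinoid genes.

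**Figure D2:**
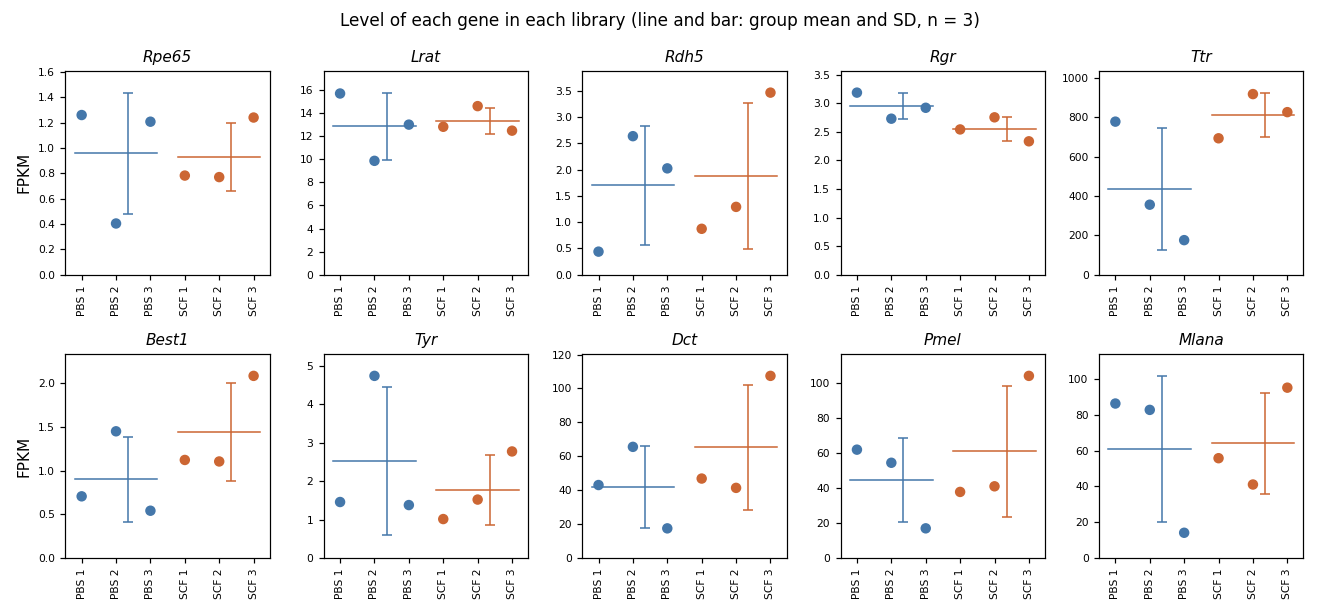
FPKM of each of the 10 genes in each library (points), with the group mean (line) and SD (bar, n = 3 per group), blue for NMDA + PBS and orange for NMDA + SCF. Each panel has its own axis from 0. Lrat and Rgr are nearly level, while Dct, Pmel and Mlana are lowest in NMDA + PBS replicate 3 and highest in NMDA + SCF replicate 3.

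Ttr showed the largest difference among the 10, and it did not pass the test. Ttr encodes transthyretin, a carrier of retinol-binding protein and of thyroid hormone that the pigment epithelium and the ciliary epithelium secrete. It was at 779, 356 and 176 FPKM in NMDA + PBS and at 694, 919 and 827 FPKM in NMDA + SCF and ranked 50 among the 25202 genes by its mean. NMDA + PBS replicate 1 lay inside the range of NMDA + SCF, and the other two NMDA + PBS libraries lay below all of it. The means were 437 ± 309 and 813 ± 113 FPKM (SD, n = 3 each). The log2 fold change was 1.14 ± 0.50 (SE), with an interval from -0.03 to 2.31, an unadjusted p of 0.0547 and an adjusted p of 0.536 by limma, and p = 0.2 by the exact permutation test. With voom the log2 fold change was 1.19 (unadjusted p = 0.0142, adjusted p = 0.42).

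The size of the Ttr difference turned on NMDA + PBS. Without NMDA + PBS replicate 1 it was 1.69 (adjusted p = 0.0899, limma), and 17.5% of all genes passed an unadjusted p of 0.05 in that fit. The groups then did not overlap, which held for 32.1% of all genes. Without NMDA + PBS replicate 3 it was 0.62 (adjusted p = 0.731, limma). Both low libraries are those with the other transcript list. With the list as a term in the fit, where a lone control library, NMDA + PBS replicate 1, then stands against NMDA + SCF, the difference was 0.05, given as a value with no test. Ttr has 1 transcript, coding and in both lists, so the same transcript was taken in every library. A gene summed over transcripts in both lists can still split by list, as Dkk3 did. Dkk3 was at 980 and 1007 FPKM in NMDA + PBS replicates 2 and 3. It was at 0.262 FPKM in NMDA + PBS replicate 1 and at most 0.261 FPKM in NMDA + SCF. The part of the list in the Ttr difference was not tested. The list and the group can be told apart only through NMDA + PBS replicate 1.

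Best1 encodes a chloride channel of the basal membrane of the pigment epithelium. It was at 0.706, 1.45 and 0.541 FPKM in NMDA + PBS and at 1.12, 1.11 and 2.09 FPKM in NMDA + SCF, from between 5 and 15 fragments. NMDA + PBS replicate 2 lay above the lower pair of NMDA + SCF libraries. The log2 fold change was 0.37 (interval -0.42 to 1.15, adjusted p = 0.705, limma).

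The melanosome genes Dct, Pmel and Mlana differed more between libraries of a group than between groups. Pmel, which forms the fibrils on which melanin is laid down, was at 61.8, 54.3 and 16.9 FPKM in NMDA + PBS and at 37.7, 40.9 and 104 FPKM in NMDA + SCF. Dct, the dopachrome tautomerase of melanin synthesis, was at 43.0, 65.5 and 17.5 FPKM and at 46.9, 41.4 and 107 FPKM. Mlana, a melanosome membrane protein, was at 86.3, 82.7 and 14.1 FPKM and at 55.7, 41.1 and 95.1 FPKM. In all 3 genes NMDA + PBS replicate 3 was lowest and NMDA + SCF replicate 3 highest, between 6.14 and 6.75 times apart. Over all 10 genes NMDA + PBS replicate 3 was lowest for 5 and NMDA + SCF replicate 3 highest for 5, against 29.2% and 18.2% of the 14013 genes with a mean of at least 1 FPKM. The other 4 libraries lay between these. Among those 4, Dct overlapped between the groups, while Pmel and Mlana were higher in both NMDA + PBS libraries than in both NMDA + SCF libraries. The log2 fold changes were 0.67 for Dct, 0.48 for Pmel and 0.35 for Mlana, with adjusted p of 0.688, 0.766 and 0.863 by limma. Without NMDA + PBS replicate 3 those of Pmel and Mlana were -0.09 and -0.48, and without NMDA + SCF replicate 3 they were 0.02 and 0.03. The value for Dct was 0.16 without the former library and 0.25 without the latter.

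Tyr, the enzyme that starts melanin synthesis, followed another order. It was at 1.46, 4.74 and 1.38 FPKM in NMDA + PBS and at 1.01, 1.52 and 2.78 FPKM in NMDA + SCF, and the highest of the 6 was NMDA + PBS replicate 2. That value rests on 114 fragments, against between 21 and 58 in the other 5 libraries. The log2 fold change was -0.27 (adjusted p = 0.842, limma), and without NMDA + PBS replicate 2 it was 0.15.

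Within a library Dct, Pmel and Mlana kept nearer to each other than to Lrat. The ratio of Dct to Pmel FPKM ranged from 0.697 to 1.24 over the 6 libraries, and that of Mlana to Pmel from 0.833 to 1.52. The ratio of Tyr to Dct ranged from 0.0217 to 0.0789, and it was between 0.0339 and 0.0789 in NMDA + PBS and between 0.0217 and 0.0368 in NMDA + SCF. The ratio of Pmel to Lrat ranged from 1.30 to 8.32. As root mean square distances between the centred log2(FPKM + 1) values of the 6 libraries, Dct and Pmel were 0.27 apart and Pmel and Mlana 0.34, and Lrat and Rgr 0.17.

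**Figure D3:**
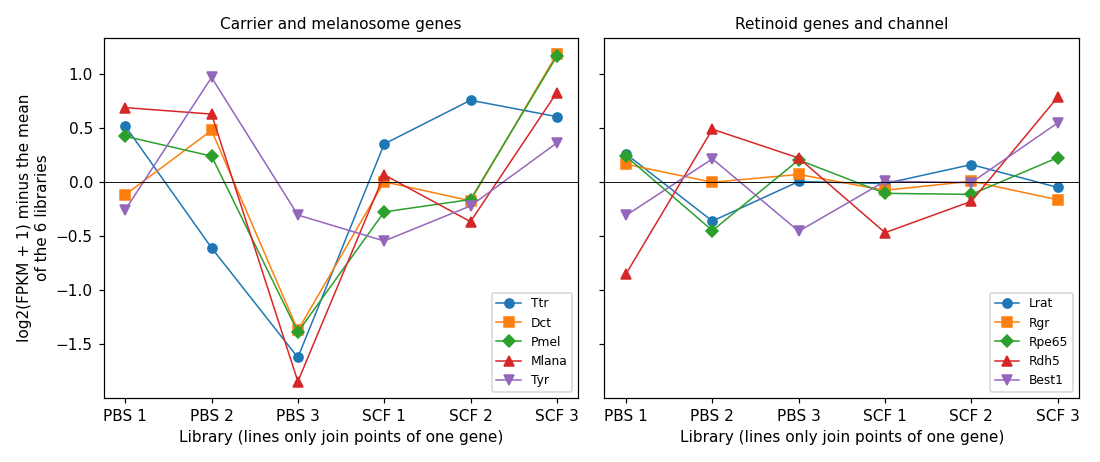
Log2(FPKM + 1) of each gene in each library minus its mean over the 6 libraries. Left, Ttr, Dct, Pmel, Mlana and Tyr, of which the former 4 lie between -1.84 and -1.37 in NMDA + PBS replicate 3. Right, the retinoid genes and Best1, of which Lrat and Rgr stay between -0.36 and 0.26.

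The spread over the 6 libraries was set beside that of all genes with between 0.5 and 2 times the fragments of the gene, as a description. The coefficient of variation was 56.9% for Dct, against a median of 21.02% over 1654 such genes. Pmel had 56.1% against 21.01%, Mlana 50.02% against 25.2%, and Tyr 65.4% against 30.9%. Ttr varied by 46.9% against 17.2%. The melanosome genes and Ttr thus varied more than the usual gene of their depth. Rgr, with 10.8% against 32.3%, Lrat, with 15.3% against 22.9%, and Rpe65, with 36.8% against 55.5%, varied less. Counting error alone, at their mean fragments, would give 15.6% for Rgr and 39.2% for Rpe65, so their low spread cannot show steady levels. For Lrat it would give 6.24%. Best1, with 47.4% against 50.2%, and Rdh5, with 63.7% against 63.2%, were near the median.

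Summed by role, the amount of these RNAs in each library could be set side by side. The 4 retinoid genes together were at 20.6, 15.6 and 19.2 FPKM in NMDA + PBS and at 17.0, 19.4 and 19.5 FPKM in NMDA + SCF, with means of 18.5 ± 2.55 and 18.7 ± 1.42 FPKM (SD, n = 3 each). The 4 melanosome genes together were at 193, 207 and 49.9 FPKM and at 141, 125 and 309 FPKM, with means of 149.9 ± 87.0 and 192 ± 102 FPKM. The retinoid sum thus ranged over 1.32-fold and the melanosome sum over 6.20-fold. NMDA + PBS replicate 3, lowest of all for the melanosome genes, was in the middle for the retinoid genes. The largest part of the retinoid sum was Lrat, with means of 12.9 and 13.3 FPKM. Singly, Lrat ranged over 1.59-fold, Rgr over 1.36-fold, Rpe65 over 3.12-fold and Rdh5 over 7.87-fold. Rpe65 and Rdh5 had at most 10 fragments in a library. All 10 together came to 993, 581 and 246 FPKM and to 854, 1064 and 1158 FPKM, of which Ttr made up 76.6% over the 6 libraries.

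Markers of other tissues around the retina also differed between libraries. Of 8 lens genes measured, 7 had an unadjusted p under 0.05 by limma, all higher in NMDA + SCF, and 0 an adjusted p under 0.05, and the sums given above were highest in NMDA + SCF replicates 3 and 1. The 5 ciliary body and iris markers Otx1, Msx1, Zic1, Zic4 and Wfdc1 summed to between 10.005 and 13.5 FPKM in NMDA + PBS and to between 20.99 and 27.5 FPKM in NMDA + SCF, and 2 of them passed an unadjusted p of 0.05. In NMDA + SCF replicate 3, where Dct, Pmel and Mlana were highest, the lens, ciliary body and iris, and red blood cell sums were highest too. The red blood cell genes stood at 235 FPKM there and at between 26.4 and 111 FPKM in the other 5. The other libraries did not keep this order. NMDA + PBS replicate 1 had the lowest lens and the lowest ciliary body and iris sums, 23.4 and 10.005 FPKM. Its melanosome sum, 193 FPKM, lay above the 141 and 125 FPKM of NMDA + SCF replicates 1 and 2. In NMDA + PBS replicate 2, where Tyr was highest, the 5 stroma genes Col1a1, Col1a2, Col3a1, Dcn and Lum summed to 75.7 FPKM, against between 1.02 and 4.15 FPKM in the other 5. The melanocyte markers Mc1r and Erbb3 summed to between 5.12 and 9.79 FPKM. In the same NMDA + PBS replicate 2 Erbb3 was highest, at 2.17 FPKM, while Mc1r was lowest, at 3.52 FPKM. At the same unadjusted p, 2 of 3 red blood cell genes and 2 of 4 rod genes were higher, 2 of 3 cornea epithelium genes and 1 of 4 Müller glia genes were lower, and 0 of 4 cone, 0 of 4 bipolar cell, 0 of 4 ganglion cell, 0 of 4 endothelium, 0 of 5 stroma and 0 of 2 melanocyte genes passed. The Müller glia gene was Dkk3, at 0.262, 980 and 1007 FPKM in NMDA + PBS and at most 0.261 FPKM in NMDA + SCF, and so split by transcript list and not by group. The part of these tissues in the levels of the 10 genes was not tested. Without NMDA + SCF replicates 1 and 3, the libraries with the most lens RNA, the log2 fold changes were 1.33 for Ttr, 0.16 for Dct, 0.08 for Pmel and -0.19 for Mlana. That fit holds 1 NMDA + SCF library against 3 of NMDA + PBS and takes its spread from NMDA + PBS alone, so these are given as values with no test.

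**Figure D4:**
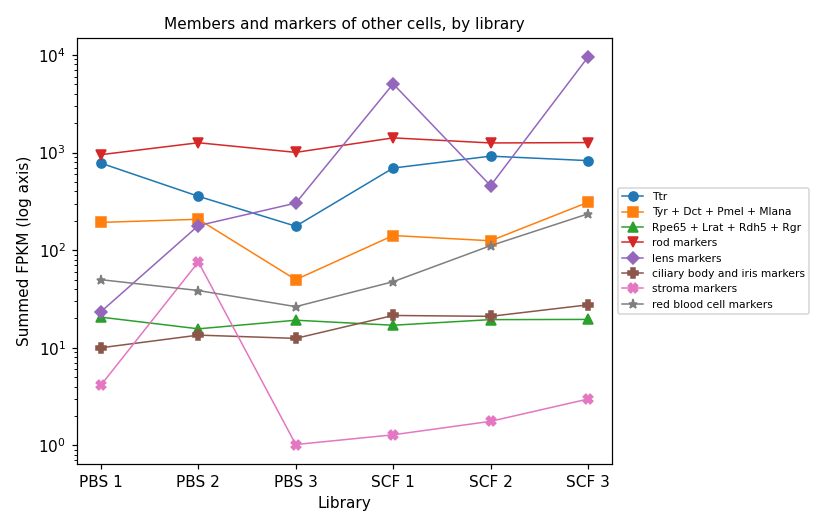
Summed FPKM (log axis) of Ttr, of the 4 melanosome genes, of the 4 retinoid genes and of marker lists of other cells in each library. The retinoid sum stays between 15.6 and 20.6 FPKM, the melanosome sum spans 49.9 to 309 FPKM, the lens sum 23.4 to 9499.7 FPKM, and the stroma sum peaks at 75.7 FPKM in NMDA + PBS replicate 2.

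The library in which Ttr, Dct, Pmel and Mlana were lowest was also low in short transcripts in general. Among coding transcripts with a mean of at least 5 FPKM, those of up to 1000 bases had a median log2 deviation from their own mean of -0.53 in NMDA + PBS replicate 3, those of 1000 to 2000 bases -0.53, those of 2000 to 4000 bases -0.29, and those over 6000 bases 0.13. The class of 1000 to 2000 bases was at 0.13 and -0.17 in NMDA + PBS replicates 1 and 2. It was at 0.12, 0.18 and 0.28 in NMDA + SCF replicates 1 to 3. NMDA + SCF replicate 3, highest for Dct, Pmel and Mlana, was also highest in the classes up to 4000 bases (0.26, 0.28 and 0.16). The main transcripts of Mlana, Ttr, Pmel and Dct are 623, 1219, 2130 and 2202 bases long. Those of Rgr, Lrat and Tyr are 4704, 5351 and 6042 bases long. In NMDA + PBS replicate 3 the 4 shorter ones deviated by -1.84, -1.62, -1.39 and -1.37, farther than the median of their length class. Of the 3 other short ones, Rdh5 (668 bases) and Rpe65 (1863 bases) deviated by 0.22 and 0.20 there, on 6 and 10 fragments. Best1 (2080 bases) deviated by -0.45, on 5 fragments, also farther than the -0.29 of its length class. The part of transcript length in the result was not tested beyond an adjustment chosen after seeing the data. With that adjustment for the trend with length in each library, log2 fold changes were 1.01 (Ttr), 0.58 (Dct), 0.38 (Pmel) and 0.31 (Mlana).

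Of the other genes of the same pathways none was called. Of 15 further visual cycle genes 13 were measured, 1 was higher at an unadjusted p of 0.05, 0 lower and 0 at an adjusted p of 0.05 by limma, with a median log2 fold change of 0.09. By limma, adjusted p being at least 0.536 for each, the 4 with the smallest p were the retinol dehydrogenase Rdh11 (0.42, unadjusted p = 0.0493), the dehydrogenase Rdh14 (0.39, unadjusted p = 0.156), Dhrs9 (-0.16, unadjusted p = 0.206) and Cyp26b1, which degrades retinoic acid (0.16, unadjusted p = 0.267). Rlbp1, the retinal-binding protein shared by Müller glia and pigment epithelium, was at 10.7, 6.69 and 8.49 FPKM in NMDA + PBS and at 13.8, 8.99 and 9.92 FPKM in NMDA + SCF.

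Of 15 further pigment epithelium genes 13 were measured, with a median log2 fold change of 0.25, and at an unadjusted p of 0.05 by limma 2 were higher and 1 lower. None reached an adjusted p of 0.05. The summed FPKM of the list was between 562 and 714 in NMDA + PBS and between 837 and 893 in NMDA + SCF. Slc16a1 and Krt18 made up most of that sum, so it says little about the other genes of the list. Slc16a1 was at 302, 207 and 244 FPKM in NMDA + PBS and at 338, 356 and 293 FPKM in NMDA + SCF. Its groups overlapped. In 4 of the 13, Bsg, Car14, Krt18 and Serpinf1, every NMDA + SCF library lay above every NMDA + PBS library, and in 1, Enpp2, below. Bsg, the glycoprotein that carries monocarboxylate transporters to the membrane, was at 12.6, 12.4 and 11.6 FPKM in NMDA + PBS and at 17.9, 22.0 and 30.8 FPKM in NMDA + SCF. Groups free of overlap in that direction were found for 7.63% of all genes, and for Bsg the log2 fold change was 0.86 (unadjusted p = 0.00666, adjusted p = 0.536). By limma, Krt18, a keratin of simple epithelia, had 0.76 (unadjusted p = 0.0259), and Serpinf1, which encodes pigment epithelium-derived factor, 0.74 (unadjusted p = 0.0506), both with an adjusted p of 0.536. Enpp2, the enzyme autotaxin, was at 1.24, 0.507 and 2.50 FPKM and at 0.0980, 0.216 and 0.109 FPKM, and every NMDA + SCF library lay below every NMDA + PBS library, as for 6.45% of all genes (log2 fold change -0.9999, unadjusted p = 0.0190, adjusted p = 0.536, limma). Mitf, which encodes the regulator of pigment cell genes, was at 4.58, 5.80 and 3.10 FPKM and at 4.68, 5.26 and 6.34 FPKM, with an adjusted p of 0.757.

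Of 11 further melanosome genes 9 were measured, and 0 passed an unadjusted p of 0.05 in either direction by limma. Their median log2 fold change was -0.14, with 3 positive and 6 negative values. The smallest p by limma belonged to Mreg (0.33, unadjusted p = 0.107), Trpm1 (-0.38, unadjusted p = 0.208), Rab27a (0.46, unadjusted p = 0.225) and the transporter Slc45a2 (-0.48, unadjusted p = 0.238). Trpm1 is also the transduction channel of ON bipolar cells, and its 12.2, 16.4 and 23.2 FPKM in NMDA + PBS and 13.3, 9.95 and 15.0 FPKM in NMDA + SCF did not follow Pmel.

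**Figure D5:**
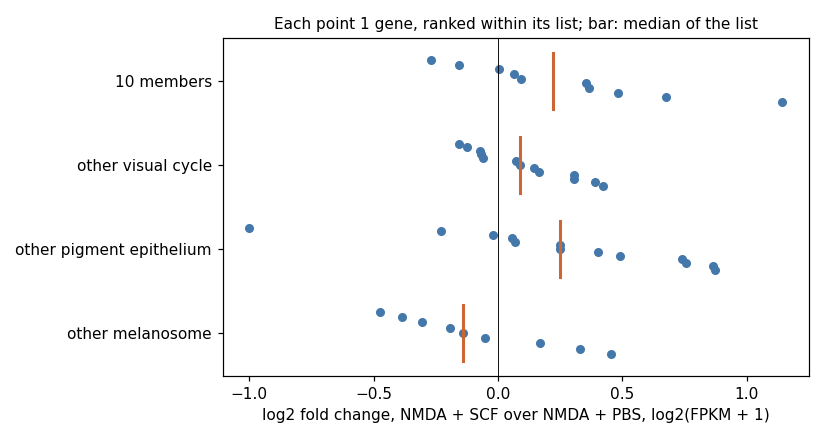
Fitted log2 fold change of every measured gene of 4 lists (points, ranked within the list) with the median of each list (bar). The medians are 0.22 for the 10 genes, 0.09 for 13 other visual cycle genes, 0.25 for 13 other pigment epithelium genes and -0.14 for 9 other melanosome genes.

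Single transcripts gave the same account. The annotation lists 33 transcripts of the 10 genes, of which 20 were in a file and 14 in both transcript lists. None of the 14 was called among 45261 transcripts tested, where 0% of all were, and 1 had an unadjusted p under 0.05, against 7.98% of all. That was the single Ttr transcript (unadjusted p = 0.0480, adjusted p = 0.591, limma over transcripts). Dct had 4 transcripts in both lists. The coding one carried between 167 and 727 fragments, and a retained intron form carried 4, 8 and 1 fragments in NMDA + PBS and 5, 7 and 23 in NMDA + SCF, so that this form too was highest in NMDA + SCF replicate 3. Rgr was measured on a coding transcript with between 29 and 53 fragments and on a short noncoding one with 0 to 2. The values for Rpe65, Rgr and Rdh5 rest on transcripts other than the first coding one of each gene, which was not analysed here. In NMDA + PBS replicates 2 and 3 alone, where the list held them, 2 retained intron forms of Rdh5 carried 27 and 11 fragments and 20 and 25 fragments, more than the coding form there. With them summed in, the log2 fold change of Rdh5 was -1.40 (unadjusted p = 0.189, adjusted p = 0.612), and the sums then differed in what they held. Rdh5 overlaps Bloc1s1 on the same strand. On the other strand Pmel overlaps Dgka and Cdk2, Lrat overlaps Rbm46os and Dct overlaps 4930435M08Rik. Reads where these genes overlap may belong to either gene.

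On GRCm38 the genes lie apart from each other except for Pmel and Rdh5, which are near neighbours on chromosome 10. Pmel spans chr10:128704195-128720238 on the plus strand, and Rdh5 spans chr10:128913593-128922888 on the minus strand. Both were highest in NMDA + SCF replicate 3, while Rdh5 was lowest in NMDA + PBS replicate 1 and Pmel in NMDA + PBS replicate 3. Dct spans chr14:118012790-118052244 and Rgr chr14:37034909-37048964, Mlana spans chr19:29697824-29708634 and Best1 chr19:9985174-10001633, Rpe65 spans chr3:159599175-159625321 and Lrat chr3:82892579-82903973, and Tyr spans chr7:87424771-87493512.

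The genes whose values over the 6 libraries were most like those of Rpe65 and of Ttr were sought among the 14013 genes with a mean of at least 1 FPKM, by the root mean square distance of centred log2(FPKM + 1). Nearest to Rpe65 were Mrpl18 (0.05), Mad2l1 (0.06), Gm47558 (0.07), Nub1 (0.08) and Ears2 (0.08). The values of Rpe65 rest on between 3 and 10 fragments in a library. Their spread of 36.8% lies under the 39.2% of counting error alone. Likeness to Rpe65 here thus cannot be told from likeness to counting error. Nearest to Ttr were Higd2a (0.09), Slc9a3r2 (0.09), Selenow (0.13), Mphosph10 (0.14) and Gm11518 (0.16). Higd2a was at 485, 248 and 113 FPKM in NMDA + PBS and at 439.6, 541 and 577 FPKM in NMDA + SCF. Like Ttr, it was lower in NMDA + PBS replicates 2 and 3 than in the other 4 libraries. Slc9a3r2 was at 15.9, 6.15 and 2.98 FPKM and at 14.1, 17.0 and 14.6 FPKM, in the same order of libraries at the low end.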

How the data were processed

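The data were 6 retinal RNA libraries, 3 per group. The authors deposited FPKM values per transcript for each library, and a table with the count of clean reads and the percent of reads kept. Clean reads ranged from 44925938 to 48783182, with between 97.1 and 97.6% of reads kept. The aligner, the counter and their settings are not given in the sources used here. The submitters' processing notes name the build mm9, but of 63313 Ensembl transcripts that GENCODE M21 (GRCm38) also holds, 98.2% had its start and end, and coordinates are given on GRCm38. Assembled transcripts with no gene name, between 8.85 and 11.4% of the FPKM sum, were left out.

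The 10 genes, the other gene lists and the marker lists were chosen with earlier results of these data known. For each gene, FPKM was added up over those of the 46933 Ensembl transcripts common to both lists, and log2(FPKM + 1) was fitted with limma 3.58.1 (R 4.3.3, variance trend, condition only) for all genes above 0 in a library. Fold changes are on that scale and understate the change of low genes. P-values were adjusted over all genes by Benjamini-Hochberg. A call needed at least a 2-fold change with an adjusted p no higher than 0.001, which are the study's thresholds. Fragments were recovered as value times length, whole within 0.05 of a fragment, 1 part in 10000 or the rounding of the file. Intervals on fragments are exact Poisson intervals and cover counting error only. Exact permutation tests were two-sided, with 0.1 as the smallest p. The genes named from the other lists were the 4 with the smallest p of each list. Rlbp1, Mitf, Slc16a1 and Car14 were named besides these, after their values were seen. Slc16a1 was named for its share of a sum and Car14 for groups that did not overlap. In simulated data of 25202 genes, of which 200 were changed, limma called 51 at an adjusted p of 0.05, of which 48 were changed. Alternatives were other scalings, a filter on low values, a pseudocount of 0.1, a replicate block, all listed transcripts, the transcript list as a term, voom on recovered fragments and each library left out. A length adjustment and a fit without NMDA + SCF replicates 1 and 3 were chosen after seeing the data. Python 3.11.15 made the tables and plots. Results that need certain single genes are not reported here.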

Additional observations from a re-analysis of the deposited data

How the results depend on the processing

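Under the alternatives fitted with a test none of the 10 genes was called, and none of their transcripts was with a filter on low values or with each library left out. The transcript list as a term gave values with no test. Over all genes 0 were called under the tested alternatives except without NMDA + PBS replicate 1, where 55 were, so that the count ranged from 0 to 55 with each library left out, and none of the 55 was among the 10 genes. The median log2 fold change of the 10 genes ranged from 0.02 to 0.46 with each library left out, was -0.06 with the transcript list as a term, and moved by less than the spread between libraries under every alternative. The log2 ratio of the summed FPKM ranged from 0.38 to 1.31 with each library left out, and without Ttr the sum gave 0.32. Pairing by number was looked for in the deviations of log2(FPKM + 1) from the group mean, over 14013 genes. These correlated at between -0.08 and -0.05 for same-numbered libraries and at between 0.01 and 0.05 for the others. No pairing by number was seen, but such values cannot establish that the samples were unpaired. With the replicate block 0 genes were called, the median of the 10 genes was 0.22, and the block changed no call.

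The direction of 6 genes turned under some alternatives, none with an adjusted p under 0.05 where a test was given, and the cause was not tested. The fit without NMDA + SCF replicates 1 and 3 leaves 1 library in that group. For Rpe65 the log2 fold change was -0.066 with upper quartile scaling, -0.042 with median-of-ratios scaling, -0.24 with the list as a term, -0.11 without NMDA + SCF replicates 1 and 3, -0.10 with the length adjustment, and between -0.22 and 0.12 with each library left out. For Lrat it was -0.053, -0.0088 and -0.23 under the first 3 of these and between -0.10 and 0.21 with each library left out. Rdh5 gave -1.40 with all listed transcripts, -0.13 without NMDA + SCF replicates 1 and 3, and between -0.31 and 0.36. Tyr gave 0.12 with the list as a term and between -0.52 and 0.15. Pmel gave -0.18 with the list as a term and between -0.089 and 0.82. Mlana gave -0.51 with the list as a term, -0.19 without NMDA + SCF replicates 1 and 3, and between -0.48 and 0.78. The single libraries whose removal turned the sign were NMDA + PBS replicate 2 for Rpe65, Lrat and Tyr, NMDA + PBS replicate 1 for Rdh5, NMDA + PBS replicate 3 for Pmel and Mlana, and NMDA + SCF replicate 3 for Rpe65 and Rdh5. Ttr, Dct, Best1 and Rgr kept their direction under every alternative. Depth limited Rpe65, Rdh5 and Best1 most, with at most 15 fragments in a library.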
